A study of Mus musculus with 22 samples.

Results

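Insulin and the insulin-like growth factors (IGFs) share a signalling pathway, and 10 of its genes were followed here in mouse liver: Igf1, Igfals, Igfbp1, Igfbp2, Igfbp3, Igfbp4, Igf1r, Insr, Irs1 and Irs2. They were picked by name, by matching gene identifiers to GENCODE mouse symbols. The choice was made with earlier results of these data known. All 10 were found among the 53392 genes of the count table, and all 10 passed the filter on low counts that left 15928 genes for testing. The liver is the main source of circulating IGF-1, which it makes under the control of growth hormone acting through its receptor and STAT5. Most IGF-1 in blood is held by IGF-binding proteins, and the largest of these complexes joins IGF-1, IGFBP3 (or IGFBP5) and the acid-labile subunit. Insulin and IGF-1 bind related receptor tyrosine kinases, which act through the substrates IRS1 and IRS2 on PI3K and AKT; in hepatocytes AKT keeps FoxO factors out of the nucleus, and Igfbp1 and Irs2 are textbook genes that FoxO raises and insulin lowers.

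RNA from the livers of 22 female C57BL/6 mice was sequenced. The groups were 6 conventional non-pregnant (CN), 5 conventional pregnant (CP), 6 germ-free non-pregnant (GN) and 5 germ-free pregnant (GP) mice, each library being 1 mouse. All mice had the same autoclaved chow, and the labels name no genetic alteration in any group. Livers of pregnant mice were taken on gestation day 15. Conventional females were 8 weeks old when caged overnight with a male, whereas germ-free females were 11 to 15 weeks old and were caged for 72 h, with gestation day 0 assumed, so the stage of the germ-free pregnancies is less certain. The labels give an age, with no unit, of 70 or 77 for conventional and 91 to 121 for germ-free mice. These ages do not overlap, so in every comparison of germ-free with conventional mice the microbiota and age cannot be told apart.

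The libraries held 18064491 to 30036912 estimated counts, of which 5.90% to 31.99% came from mitochondrially encoded genes. Levels are given as CPM, counts per 1e+06 counts of the library, after TMM scaling, a correction for library composition. A gene was called changed when its adjusted p, over all 15928 genes, was under 0.05 in edgeR's quasi-likelihood test, and errors on log2 changes are standard errors. Nothing in the labels says whether mice came from separate litters or cages, so p-values measure only the spread between these mice. The 9 hepatocyte markers that could be matched were all expressed, with a summed level of 57903 to 241086 CPM. In CP2 the acute phase gene Saa1 stood at 2049 CPM, against at most 62.2 CPM in any other library. Calls in conventional pregnancy that rest on CP2 are given with and without it. Averaged contrasts, list medians and correlations include CP2 and are not given without it. In bulk liver, fewer cells of a type and less RNA per cell cannot be told apart.

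In pregnant conventional mice 1 of the 10 genes was called higher and 0 lower, against 5.49% of all genes called higher and 3.52% called lower. In pregnant germ-free mice 3 of the 10 were called higher and 0 lower, against 7.15% and 3.6% of all genes. The gene that rose in conventional mice was Igfbp1; without CP2 the count was again 1 of 10, but the gene was Igfbp4. Those that rose in germ-free mice were Igfbp4, Irs2 and Igfals. The median log2 change of the 10 genes was 0.20 in conventional and 0.26 in germ-free pregnancy, beside medians over all tested genes of 0.04 and -0.02. The libraries of the compared groups did not overlap for 0 of the 10 genes in conventional pregnancy (4.96% of all genes) and for 3 of the 10 in germ-free pregnancy (8.47% of all genes), namely Igfbp1, Igfbp4 and Igfals. Levels per kilobase of exon differed widely between the genes: in CN the mean was 411 CPM per kb for Igfbp2, 378 for Igfbp4, 79.8 for Igf1, 39.8 for Igfals, 6.50 for Igfbp1, 5.52 for Insr, 5.43 for Igfbp3, 1.88 for Irs2, 0.558 for Irs1 and 0.175 for Igf1r. In GP the order changed at the top and in the middle, with Igfbp4 at 740 CPM per kb above Igfbp2 at 570.1, and Igfbp1 at 113 above Igf1 at 54.5.

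**Figure D1:**
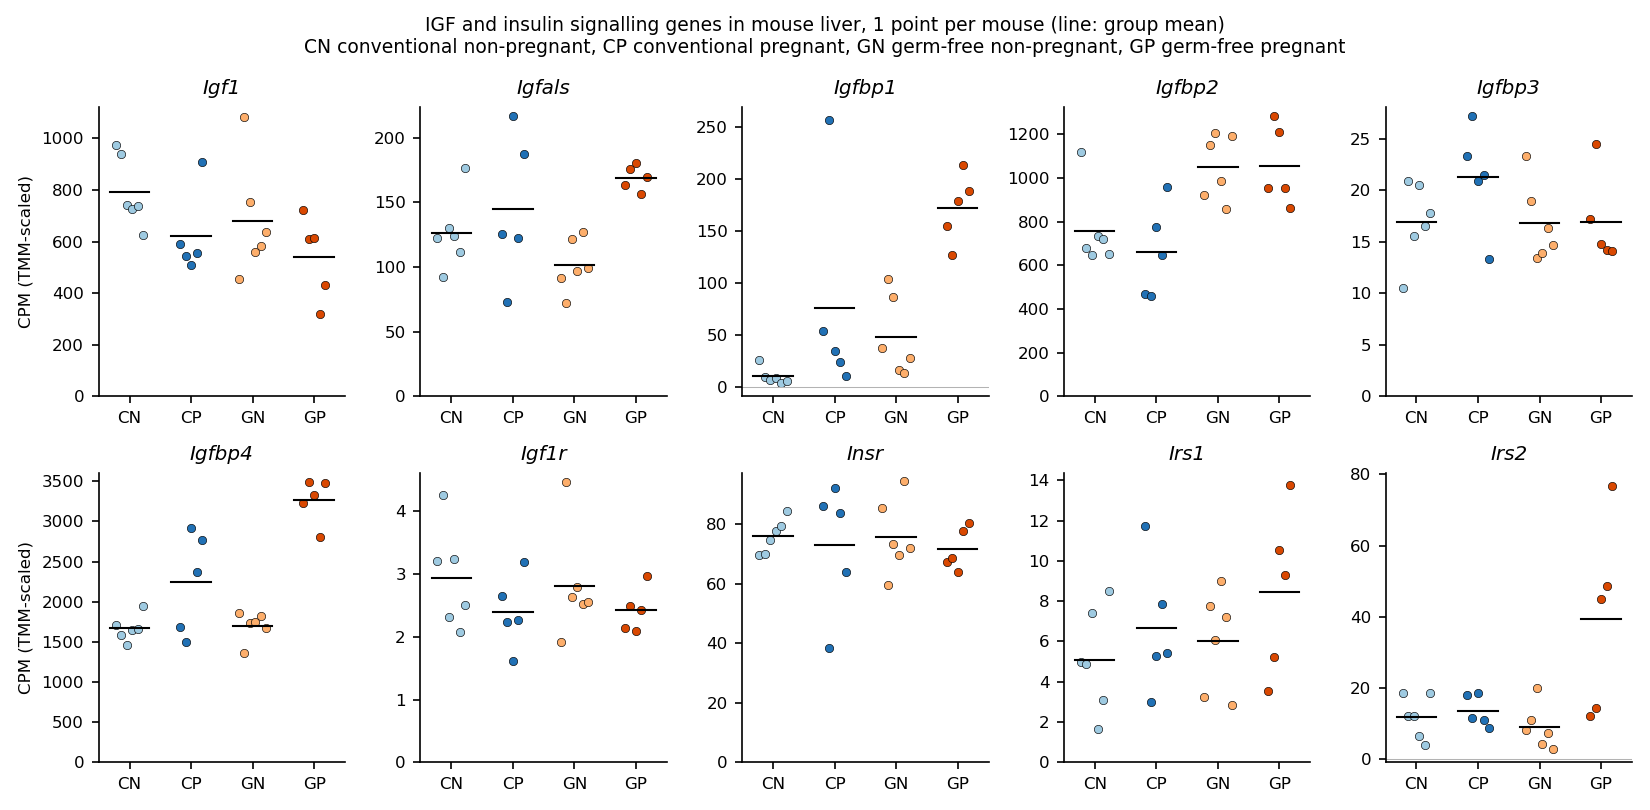
Level of each of the 10 genes in CPM (vertical axes, each starting at or near 0) in the 22 livers, by group; each point is 1 mouse and each line a group mean. The 5 GP mice lie above all 6 GN mice for Igfals, Igfbp1 and Igfbp4, and CP2 is the highest CP mouse for Igfbp1 at 256 CPM.

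Igf1 (chr10:87858265-87937042, + strand, GRCm38) encodes the secreted growth factor itself. Its level ran from 625.2 CPM through a median of 739 to 975.1 in CN, and stood at 591, 544, 509, 555 and 907 CPM in CP1 to CP5. In germ-free mice it ran from 456 through 610.4 to 1083 CPM in GN and stood at 724, 611, 614, 321 and 429.9 CPM in GP1 to GP5. Both pregnant groups had lower means than their non-pregnant groups, but the ranges overlapped in both, and CP5 lay as high as the upper CN mice. The log2 change was -0.35 ± 0.23 in conventional pregnancy (95% interval -0.81 to 0.12, adjusted p = 0.405 by edgeR) and -0.33 ± 0.23 in germ-free pregnancy (-0.80 to 0.14, adjusted p = 0.401). Averaged over both microbiota groups it was -0.34 ± 0.16, with an adjusted p of 0.147, so a fall in Igf1 was not called.

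Igfals (chr17:24865997-24882010, + strand) encodes the acid-labile subunit, which the liver makes in response to growth hormone and which lengthens the life of IGF-1 in blood. It rose in germ-free pregnancy, from 72.3 to 127 CPM in GN (median 98.1) to 164, 176, 181, 156 and 169 CPM in GP1 to GP5. All GP mice lay above all GN mice, and the GP values were the tightest of any group (mean 169 ± 9.62 SD, n = 5, against 101 ± 20.1, n = 6). The log2 change was 0.74 ± 0.21 (1.67-fold, adjusted p = 0.0230 by edgeR). The call was narrowly lost when GN1, GN2, GP3 or GP5 was left out, with log2 changes of 0.66 to 0.72 and adjusted p of 0.0505, 0.0523, 0.0555 and 0.0584. In conventional pregnancy the CP mice spread widely, at 125, 72.7, 217, 123 and 188 CPM, around a CN range of 92.3 to 177 CPM. The log2 change there was 0.20 ± 0.21 (adjusted p = 0.648), and the difference between the 2 pregnancy changes was 0.54 ± 0.30 (adjusted p = 0.883).

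Igfbp1 encodes the binding protein that changes fastest in blood: the liver makes more of it in fasting and stress and less after insulin. It occupies chr11:7197782-7202546 on the + strand, immediately before Igfbp3, which is read from the opposite strand at chr11:7206086-7213923. The 250 bases before its RefSeq start (chr11:7197537-7197786, + strand, GRCm38.p6) are shown because they hold the sequence through which insulin is known to act on this gene, with its core CAAAACA in capitals.

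Igfbp1 promoter: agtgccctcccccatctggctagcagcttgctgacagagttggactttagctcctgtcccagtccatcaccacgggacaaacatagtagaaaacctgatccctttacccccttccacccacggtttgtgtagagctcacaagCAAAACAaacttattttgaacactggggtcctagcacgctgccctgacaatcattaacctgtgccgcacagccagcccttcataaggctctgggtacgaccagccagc

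Promoters of 9 of the 10 genes were found in the RefSeq table, 12 in all; Insr was not among them. They were searched on both strands for CAAAACA, the core of the insulin response sequence, for GTAAACA, a forkhead motif, and for TTCNNNGAA, a STAT motif; the matches did not overlap each other. In Igfbp1, CAAAACA lies 108 to 102 bases before the start. The same motif was found in Irs1 and Irs2, making 3 of 9 genes, beside 5.56% of all 32851 promoters in the table. GTAAACA was found in 1 of the 9 genes, Igfals (3.17% of all promoters), and TTCNNNGAA in 1 of the 9, again Igfals (7.02%). The counts are of genes with a match in any of their promoters, whereas the shares are of single promoters, so the 2 measures are unlike. Igfals had 3 promoters and Igfbp2 had 2. A match is a description of these windows and not a measured site.

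Igfbp1 was the gene of the 10 that differed most between groups. Its level ran from 3.31 CPM through a median of 7.49 to 25.97 in CN. In CP1 to CP5 it stood at 53.4, 256, 34.4, 23.5 and 10.1 CPM. Of these, 3 lay above every CN mouse and 2, CP4 and CP5, lay within the CN range. The log2 change was 2.93 ± 0.68 (7.64-fold, 95% interval 1.53 to 4.34, adjusted p = 0.00707 by edgeR). Without CP2 the change was 1.62, and the call was lost (adjusted p = 0.0812).

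In germ-free mice, GN livers ran from 13.4 CPM through a median of 32.1 to 104 for Igfbp1, and GP1 to GP5 stood at 155, 127, 179, 213 and 188 CPM. Every GP mouse lay above every GN mouse, and the GP mean was 172 ± 32.9 CPM (SD, n = 5) against 47.4 ± 38.3 (n = 6) in GN. The fitted change was 1.86 ± 0.65 (3.64-fold) and was not called, with an adjusted p of 0.0690 by edgeR. It was called in 6 of 20 alternative fits, and over all 20 the change ran from 1.67 to 2.81 with adjusted p up to 0.137. The 6 were those with only the compared groups (1.84, adjusted p = 0.0166), with limma-voom (2.25, 0.0239), with age as a covariate (2.44, 0.0299), without GN2 (2.25, 0.0358), within age label 105 (2.81, 0.000470) and with a replicate block. The fit within label 105 was chosen after the data were seen, and the replicate numbers belong to different mice. Averaged over both microbiota groups, Igfbp1 rose by 2.40 ± 0.47 in pregnancy (adjusted p = 0.00063 by edgeR). That average includes CP2, without which its conventional part was 1.62 and not called. By mean the order of the groups was CN, GN, CP, GP. Without CP2 the CP mean was 30.4 ± 18.3 CPM (SD, n = 4) and the order was CN, CP, GN, GP. The ranges of CN, GN and CP overlapped one another, and the GP range was reached by CP2 alone.

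Igfbp4 (chr11:99041244-99054392, + strand) encodes a binding protein made in quantity by hepatocytes, which holds IGFs until the protease PAPP-A cuts it. It rose in germ-free pregnancy, from 1361 to 1854 CPM in GN (median 1744) to 3231, 3495, 3330.4, 2808 and 3475 CPM in GP1 to GP5. The groups were far apart, the lowest GP mouse lying well above the highest GN mouse. The log2 change was 0.94 ± 0.16 (1.92-fold, adjusted p = 0.000398 by edgeR), and it was called in 20 of 20 alternative fits. Within age label 105 it was 0.95 (adjusted p = 0.00379).

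In conventional pregnancy the Igfbp4 values fell into a low pair and a high trio. CP1 and CP2 stood at 1686 and 1503 CPM, inside the CN range of 1464 to 1941 CPM, while CP3, CP4 and CP5 stood at 2920.5, 2374 and 2769.5 CPM, above every CN mouse. The log2 change over all CP mice was 0.43 ± 0.16 and was not called (adjusted p = 0.108 by edgeR). Without CP2 it was 0.55 and was called (adjusted p = 0.0285). The split follows the age label, which is 70 for CP1 and CP2 and 77 for CP3 to CP5. Within label 77 (3 CP and 4 CN mice) Igfbp4 was higher by 0.71 (adjusted p = 0.0206), and within label 70 (2 and 2 mice) the change was -0.22 (adjusted p = 0.931). These within-label fits were chosen after the data were seen.

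Igfbp4 has no match to the 3 motifs in the 250 bases before its RefSeq start (chr11:99040994-99041243, + strand), which is also its GENCODE start. The window is shown for comparison with that of Igfbp1.

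Igfbp4 promoter: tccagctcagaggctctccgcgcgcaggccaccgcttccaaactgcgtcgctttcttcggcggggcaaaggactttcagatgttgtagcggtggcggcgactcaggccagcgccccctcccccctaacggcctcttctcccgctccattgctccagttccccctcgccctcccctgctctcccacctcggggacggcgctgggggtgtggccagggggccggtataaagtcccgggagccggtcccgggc

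The growth hormone receptor gene Ghr and the prolactin receptor gene Prlr split the CP mice in the same places. Ghr stood at 860.1 and 542 CPM in CP1 and CP2 and at 2291 to 2783 CPM in CP3 to CP5, against 277 to 418 CPM in CN. Prlr stood at 928 and 646 CPM in CP1 and CP2 and at 1794 to 2073 CPM in the others, against 187 to 303 CPM in CN. Unlike Igfbp4, both receptor genes were above the CN range in CP1 and CP2 as well. Over the 22 libraries the log2 CPM of Igfbp4 and Ghr had a Pearson r of 0.92, and with the group means removed r was 0.88; Igfals and Ghr had r of 0.73 and 0.77. Igfbp1 had r of 0.50 to Ghr over all libraries and -0.65 with the group means removed. Ghr spread most within CP, the other groups running from 277 to 418 (CN), 293 to 382 (GN) and 2044 to 3087 CPM (GP). The values with group means removed therefore rest largely on the CP split, and they are not given without CP2. The correlations are descriptions over mice that share groups, ages and library composition, and the part of the age label in them was not tested.

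**Figure D2:**
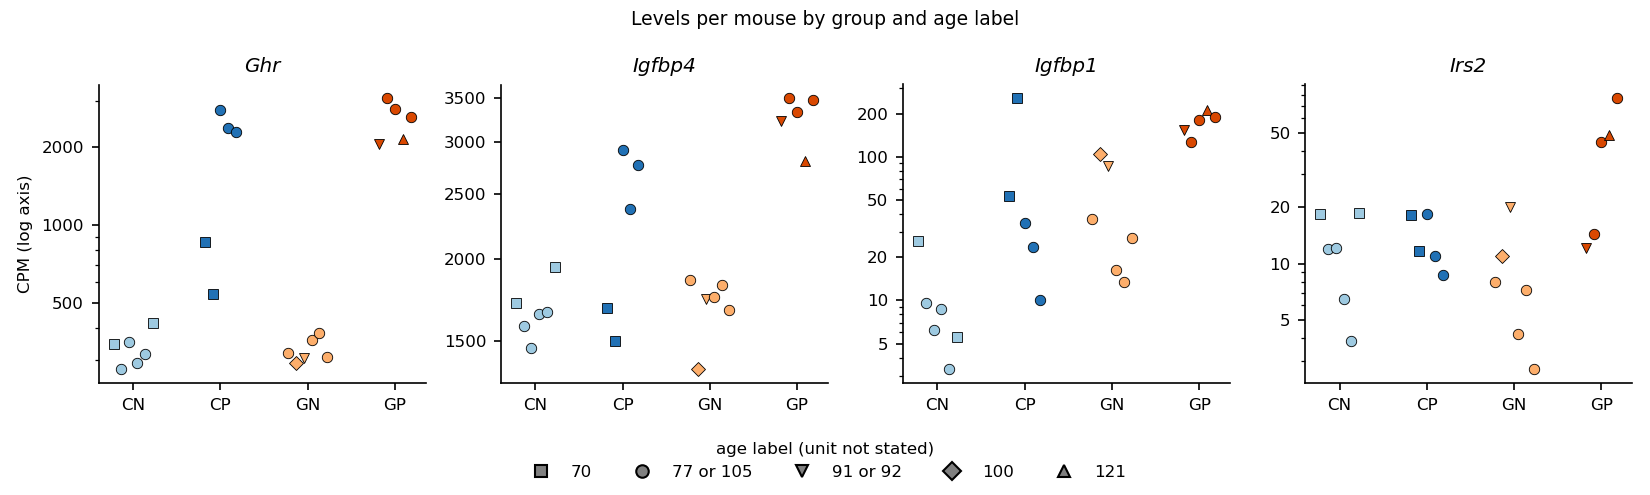
Levels in CPM (log axes) of Ghr, Igfbp4, Igfbp1 and Irs2 in each mouse, by group (horizontal) and age label (symbol). The 2 CP mice with label 70 are the lowest of their group for Ghr and Igfbp4 and the highest for Igfbp1. Among GP mice those with labels 91 and 121 are the lowest for Ghr and Igfbp4, and the groups GN and GP stay apart for both genes.

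Igfbp2 (chr1:72824503-72852474, + strand) encodes another hepatocyte binding protein, which is known to rise when growth hormone is low. It was not called in any comparison. Its level ran from 647 CPM through 699 to 1119 in CN, and stood at 471, 460.3, 776, 645 and 959 CPM in CP1 to CP5. In GN it ran from 856 through 1067 to 1204 CPM, and in GP it stood at 954, 1284, 1209, 954 and 864 CPM. Apart from CN1, every CN mouse lay below every GN mouse, and CP5 alone of the CP mice reached the GP range. The germ-free difference was 0.47 ± 0.19 in non-pregnant mice (adjusted p = 0.606 by edgeR) and 0.67 ± 0.20 in pregnant mice (adjusted p = 0.261). Averaged over both pregnancy states it was 0.57 ± 0.14 (adjusted p = 0.0533), while the pregnancy change so averaged was -0.10 ± 0.14 (adjusted p = 0.682).

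Igfbp3, whose protein carries most IGF-1 in blood, is made in liver mainly by non-parenchymal cells and stood low in whole liver. Group means were 17.0 ± 3.80 CPM in CN, 21.3 ± 5.06 in CP, 16.8 ± 3.80 in GN and 17.0 ± 4.40 in GP (SD, n = 6, 5, 6 and 5). All 4 groups overlapped. The log2 change was 0.33 ± 0.20 in conventional pregnancy (95% interval -0.08 to 0.73, adjusted p = 0.350) and 0.01 ± 0.20 in germ-free pregnancy (-0.40 to 0.42, adjusted p = 0.979), both by edgeR. Although Igfbp3 is the neighbour of Igfbp1, its change averaged over both microbiota groups was 0.17 ± 0.14 (adjusted p = 0.438 by edgeR), beside 2.40 ± 0.47 for Igfbp1. Both averages include CP2.

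The receptor genes did not pass the test in any comparison. Igf1r (chr7:67952827-68233668, + strand) encodes the IGF-1 receptor, which is known to be scarce in adult hepatocytes, and its group means were 2.93 ± 0.80 CPM in CN, 2.39 ± 0.58 in CP, 2.81 ± 0.86 in GN and 2.42 ± 0.35 in GP. Insr (chr8:3122061-3279617, - strand) encodes the insulin receptor, with means of 75.9 ± 5.72, 72.8 ± 21.9, 75.7 ± 12.3 and 71.6 ± 7.12 CPM in the same order. Conventional pregnancy gave Insr a difference of -0.06 ± 0.17 (95% interval -0.40 to 0.28), and germ-free pregnancy one of -0.08 ± 0.17 (-0.42 to 0.26), on the log2 scale (adjusted p = 0.885 and 0.823 by edgeR). The lowest Insr value of the 22 was that of CP2, at 38.3 CPM against 59.5 to 94.4 CPM elsewhere.

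Irs2 (chr8:10984681-11008458, - strand) encodes the substrate that carries much of the insulin signal in liver after fasting. It rose in germ-free pregnancy, from 2.72 to 20.0 CPM in GN (median 7.62) to 12.2, 14.3, 44.9, 48.5 and 76.7 CPM in GP1 to GP5. GP3, GP4 and GP5 lay above every mouse of the other 3 groups, whereas GP1 and GP2 lay within the GN range. The log2 change was 2.15 ± 0.48 (4.43-fold, adjusted p = 0.0044 by edgeR), and it was called in 20 of 20 alternative fits. In conventional mice Irs2 ran from 3.85 CPM through 12.0 to 18.6 in CN and stood at 18.1, 11.6, 18.4, 11.0 and 8.73 CPM in CP1 to CP5. The CP values all lay within the CN range, with a log2 change of 0.19 ± 0.48 (95% interval -0.80 to 1.18, adjusted p = 0.867). The difference between the pregnancy changes was 1.96 ± 0.68, with an unadjusted p of 0.00848 and an adjusted p of 0.863, so it was not called. Exons of Irs2 overlap those of 9530052E02Rik on the opposite strand, and with a library kit that does not mark strand their reads cannot be told apart.

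The 250 bases before the RefSeq start of Irs2 (chr8:11008930-11009179, - strand) are shown because they share the CAAAACA motif with Igfbp1. It is read here on the opposite strand, as the capitals TGTTTTG, 37 to 31 bases before that start, which lies upstream of the GENCODE start used for the gene's span above.

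Irs2 promoter: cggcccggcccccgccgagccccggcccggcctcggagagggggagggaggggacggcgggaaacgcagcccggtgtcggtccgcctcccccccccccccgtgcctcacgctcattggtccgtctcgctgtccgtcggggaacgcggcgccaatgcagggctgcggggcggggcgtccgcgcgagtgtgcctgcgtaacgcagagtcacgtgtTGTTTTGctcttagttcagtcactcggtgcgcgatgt

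Both genes carried the motif, and each was called higher in 1 of the pregnancy comparisons. Igfbp1 was called in conventional mice, a call lost without CP2, and Irs2 in germ-free mice. In germ-free mice Igfbp1 changed by 1.86 ± 0.65, which was not called although every GP mouse lay above every GN mouse. Irs1, which has the motif at 2 places (111 to 105 and 32 to 26 bases before its start), was not called in any comparison. Irs1 (chr1:82233101-82291416, - strand) encodes the other main substrate of the insulin receptor in liver, and its exons overlap Gm9747 on the opposite strand. Its means were 5.10 ± 2.57 CPM in CN, 6.65 ± 3.32 in CP, 6.02 ± 2.50 in GN and 8.47 ± 4.11 in GP, and all 4 ranges overlapped. The log2 changes were 0.38 ± 0.40 and 0.50 ± 0.40 in conventional and germ-free pregnancy (adjusted p = 0.650 and 0.485 by edgeR).

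**Figure D3:**
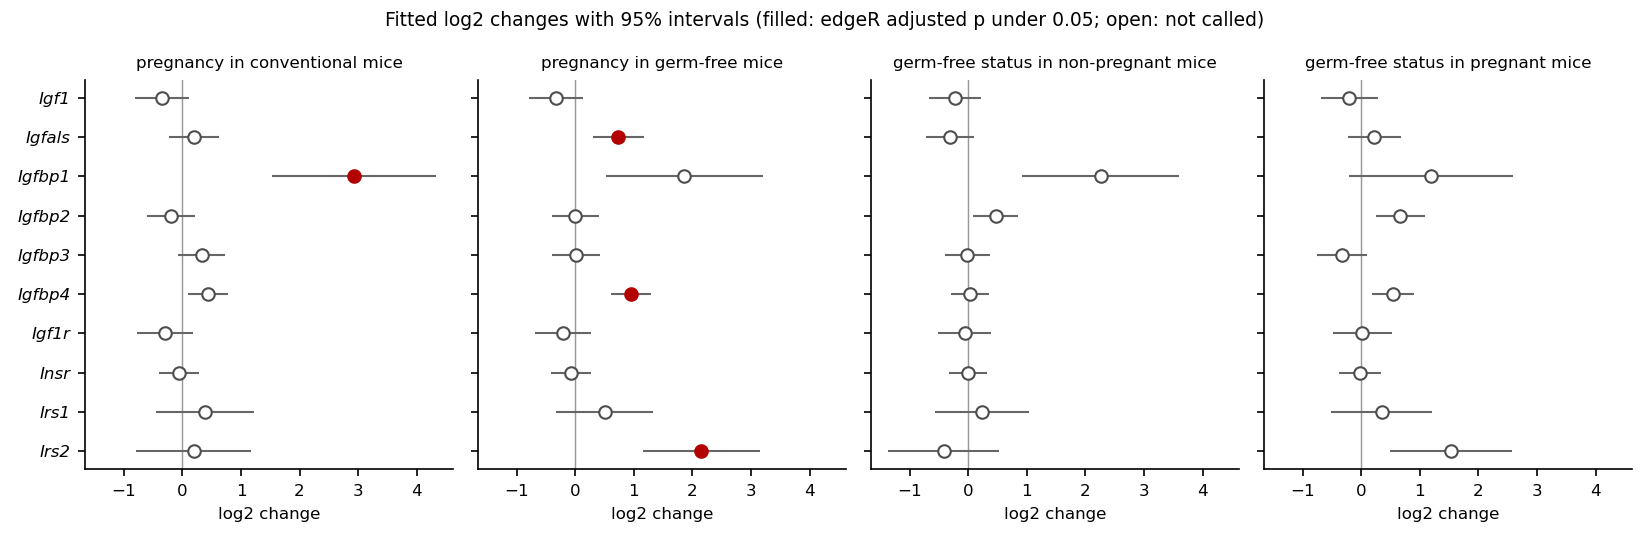
Fitted log2 change (horizontal axis) of each of the 10 genes in the 4 group comparisons, with 95% intervals as lines; filled points have an edgeR adjusted p under 0.05 and open points do not. Igfbp1 at 2.93 is filled in conventional pregnancy, Igfals, Igfbp4 and Irs2 are filled in germ-free pregnancy, and no point is filled in the 2 germ-free comparisons.

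In the comparisons of germ-free with conventional mice none of the 10 genes was called by edgeR. This was so in non-pregnant mice, where 0.0879% of all genes were called higher and 0.0691% lower, and in pregnant mice, where 0.0816% were called higher and 0.0502% lower. At an unadjusted p under 0.05 there were 2 of the 10 in non-pregnant mice, Igfbp1 and Igfbp2, and 3 in pregnant mice, Igfbp2, Igfbp4 and Irs2. Of all 15928 genes, 957 passed that unadjusted threshold in non-pregnant mice and 1672 in pregnant mice. DESeq2 and limma-voom called 0 of the 10 in both. Igfbp1 had a fitted difference of 2.26 ± 0.65 in non-pregnant mice (adjusted p = 0.229) and of 1.19 ± 0.68 in pregnant mice (adjusted p = 0.546), the latter being 2.50 without CP2 (adjusted p = 0.147). In pregnant mice Irs2 differed by 1.54 ± 0.50 (adjusted p = 0.295) and Igfbp4 by 0.54 ± 0.17 (adjusted p = 0.282). None of the 10 genes had groups that did not overlap, beside 0.797% of all genes in non-pregnant and 1.1% in pregnant mice. Each comparison shares its groups with others, so these values stand beside the pregnancy changes and are not independent of them.

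No interaction of pregnancy with microbiota was called by edgeR, for these genes or any other (0% of all genes in each direction). Of the 10 genes, 2 had an unadjusted p under 0.05: Irs2, given above, and Igfbp4, at 0.51 ± 0.23 (unadjusted p = 0.0388, adjusted p = 0.863 by edgeR). So did 903 of all 15928 genes. DESeq2 and limma-voom also called 0 of the 10 for the interaction. Over the whole table DESeq2 called 2 genes higher and 5 lower, and limma-voom 1 and 1. The Irs2 and Igfbp4 changes that passed the test in germ-free and not in conventional mice are therefore not shown to differ between them. With the pregnancy change averaged over both microbiota groups, a contrast chosen after the data were seen, 4 of the 10 were called higher (Igfbp1, Igfbp4, Irs2 and Igfals) and 0 lower, against 11.8% and 8.39% of all genes. In that average Igfbp4 changed by 0.69 ± 0.12 (adjusted p = 0.000136 by edgeR), Irs2 by 1.17 ± 0.34 (0.0153) and Igfals by 0.47 ± 0.15 (0.0263). The average and its count include CP2 and are not given without it. With the germ-free difference averaged over both pregnancy states, 0 of the 10 were called, against 0.389% higher and 0.364% lower of all genes.

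Growth hormone acts upstream of Igf1 and Igfals. Of 9 genes of the growth hormone input, 3 rose and 0 fell in conventional pregnancy and 2 rose in germ-free pregnancy. The shares of all genes were 5.49% higher and 3.52% lower in conventional pregnancy, and 7.15% and 3.6% in germ-free pregnancy. Median log2 changes were 1.18 and -0.16, and list medians here and below include CP2. Ghr rose by 2.40 ± 0.29 and 2.95 ± 0.30 in conventional and germ-free mice (adjusted p = 5.76e-06 and 3.34e-07 by edgeR), and Prlr by 2.69 ± 0.26 and 3.02 ± 0.26. Socs1, a feedback inhibitor of JAK signalling, was called at 3.64 ± 1.02 in conventional mice. Without CP2 its change was -0.77 (adjusted p = 0.571), and the call was also lost without CN3 or CN5. The STAT5 feedback genes Socs2 (1.19 ± 0.40 and 0.56 ± 0.40) and Cish (0.42 ± 0.39 and -0.16 ± 0.39) were not called, nor was Stat5b (-0.04 ± 0.18 and -0.22 ± 0.18).

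Of 11 tested genes of the wider IGF system, 1 rose in conventional and 3 in germ-free pregnancy (5.49% and 7.15% of all genes). In either pregnancy 0 fell (3.52% and 3.6% of all genes). Medians were 0.24 and 0.25. Without CN6, 3 were called higher and 1 lower in conventional mice. Igf2r, whose product takes IGF-2 into lysosomes, rose in both, by 0.74 ± 0.18 and 1.18 ± 0.18 (adjusted p = 0.0102 and 9.02e-05). Furin, a protease that matures the receptor precursors, rose by 1.06 ± 0.18 in germ-free mice, as did Lrp1 by 0.76 ± 0.18. Igf2, a fetal growth factor gene that is shut down in adult mouse liver, stayed at 0.27 to 3.50 CPM in all 22 libraries and was not called. Of 15 receptor adaptors and brakes 0 fell, with medians of -0.0013 and 0.04. In conventional mice 1 rose and in germ-free mice 3 rose, beside 5.49% and 7.15% of all genes. With 1 library left out these counts ran from 0 to 2 and from 0 to 3. Ptpn1, a phosphatase that switches the insulin receptor off, was called in both, at 0.69 ± 0.20 and 0.69 ± 0.21. In conventional mice that call was lost in 7 of 11 leave-one-out fits, without CN1 to CN5, CP2 or CP5, and stood at 0.35 (adjusted p = 0.201) without CP2. In germ-free mice it was lost in 7 of 11, all but those without GN2, GN3, GN5 and GP2 (highest adjusted p 0.0802). Ide, the insulin-degrading enzyme, rose by 0.86 ± 0.22 in germ-free mice (lost without GP3, adjusted p = 0.0552), and Shc1 was called there at 0.34 ± 0.11 but lost in 9 of 11 such fits, all but those without GN5 and GP4 (highest adjusted p 0.167).

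Among 27 genes of PI3K, AKT and mTOR signalling, 2 rose and 1 fell in conventional pregnancy (5.49% and 3.52% of all genes). In germ-free pregnancy 4 rose and 0 fell (7.15% and 3.6% of all genes). Medians were 0.02 and 0.18. The number called higher was 4 without CN6 in conventional mice and 8 without GP1 in germ-free mice. Inppl1, a lipid phosphatase that removes the PI3K product, rose by like amounts in both, by 0.64 ± 0.10 and 0.68 ± 0.10 (adjusted p = 9.04e-05 and 3.47e-05 by edgeR). Akt2, the main AKT of insulin action in liver, rose by 0.67 ± 0.13 in germ-free mice and had a change of 0.36 ± 0.13 in conventional mice (adjusted p = 0.000892 and 0.0801). Tsc2, a brake on mTOR, rose by 0.55 ± 0.12 in germ-free mice. Ddit4, another brake on mTOR, rose by 0.98 ± 0.21 in conventional mice. Trib3, an inhibitor of AKT, was called lower there at -0.998 ± 0.31, a call lost in 8 of 11 leave-one-out fits, all but those without CN5, CP2 and CP3 (highest adjusted p 0.108).

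Of 17 FoxO factors and genes that FoxO raises, 0 rose and 3 fell in conventional pregnancy (5.49% and 3.52% of all genes). In germ-free pregnancy 0 rose and 1 fell (7.15% and 3.6% of all genes). Medians were -0.07 and 0.04. Without GP1 or GP2, 1 was called higher in germ-free mice. The falls in conventional mice were those of Bcl6 (-1.18 ± 0.27), Ppargc1a (-1.02 ± 0.25) and Pck1 (-0.997 ± 0.23), and Ppargc1a also fell in germ-free mice (-1.14 ± 0.25). Pck1, the gluconeogenic enzyme gene, had a change of -0.30 ± 0.23 in germ-free mice and was called higher in GP than in CP, by 1.23 ± 0.24 (adjusted p = 0.0315), a call lost in 8 of 10 leave-one-out fits, all but those without CP1 and GP3 (highest adjusted p 0.0949). Foxo1 (-0.36 ± 0.17 and -0.23 ± 0.17), G6pc (0.92 ± 0.50 and 0.28 ± 0.49) and Pdk4 (0.87 ± 0.44 and -0.06 ± 0.45) were not called in pregnancy. Igfbp1 and Irs2 belong to the same textbook class. In conventional mice Igfbp1 was called higher, a call lost without CP2, and Bcl6, Ppargc1a and Pck1 were called lower. In germ-free mice Irs2 was called higher and Ppargc1a lower, while Igfbp1 changed by 1.86 ± 0.65 and was not called. Whether FoxO had a part in any of these changes was not tested.

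Of 16 genes listed as insulin-raised, 1 rose and 3 fell in conventional pregnancy (5.49% and 3.52% of all genes). In germ-free pregnancy 0 rose and 6 fell (7.15% and 3.6% of all genes). Medians were -0.42 and -0.72. The name is that of the list, and a response of its genes to insulin was not measured here. The count of 3 fell to 1 without CN5 or CP2, and the count of 6 to 2 without GP4 and to 3 without GN5, GP2 or GP5. Scd1, a fatty acid desaturase, fell in both, with log2 changes of -1.55 ± 0.26 and -3.62 ± 0.29 (adjusted p = 0.000424 and 1.37e-08 by edgeR), and was lower in GP than in CP, with a log2 difference of -2.23 ± 0.28 (adjusted p = 0.000324). Srebf1, which drives lipid synthesis under insulin, was called lower in both as well (-0.80 ± 0.23 and -0.88 ± 0.23). Its call was lost without CN3, CN5 or CP2 in conventional mice (-0.63 and adjusted p = 0.0855 without CP2) and without GP4 in germ-free mice (adjusted p = 0.0505). Me1 was called lower in both (-0.90 ± 0.24 in each; in conventional mice lost without CN5 or CP2, highest adjusted p 0.0531). Pnpla3 went the other way in conventional mice, by 3.15 ± 0.65. In germ-free mice Ppp1r3g (-2.03 ± 0.63) and Lpin1 (-1.10 ± 0.35) were also called lower, and lost that call in 6 and 7 of 11 leave-one-out fits (highest adjusted p 0.186 and 0.148), among them those without GP2, GP3, GP4 or GP5 for both. Ppp1r3g, a glycogen-targeting subunit gene, was called higher in GN than in CN by 3.29 ± 0.63 (adjusted p = 0.0267), a call lost in 6 of 12 such fits, those without CN1 to CN4, CN6 or GN3 (highest adjusted p 0.09095).

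Of 12 genes listed as fasting-raised, 1 rose and 1 fell in conventional pregnancy (5.49% and 3.52% of all genes). In germ-free pregnancy 0 rose and 2 fell (7.15% and 3.6% of all genes). Medians were 0.22 and 0.18. Cyp4a14 fell in both (-1.40 ± 0.30 and -1.85 ± 0.31), and Nr0b2 was called lower in germ-free mice at -1.27 ± 0.34 (lost without GN2 or GP5, highest adjusted p 0.0558). Fgf21, the fasting hormone gene, was called at 3.43 ± 1.01 in conventional mice, and without CP2 the change was 0.19 (adjusted p = 0.946). That call was also lost without any 1 of CN2 to CN6. Without CP2 the counts in conventional pregnancy were 2 growth hormone input genes higher, 1 wider IGF gene higher and 0 adaptors or brakes. They were also 2 signalling genes higher and 1 lower, and 3 FoxO-list genes lower. For the insulin-raised list they were 1 higher and 1 lower, and for the fasting-raised list 1 higher and 1 lower. The fasting-raised gene called higher without CP2 was not Fgf21 and is not named here.

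**Figure D4:**
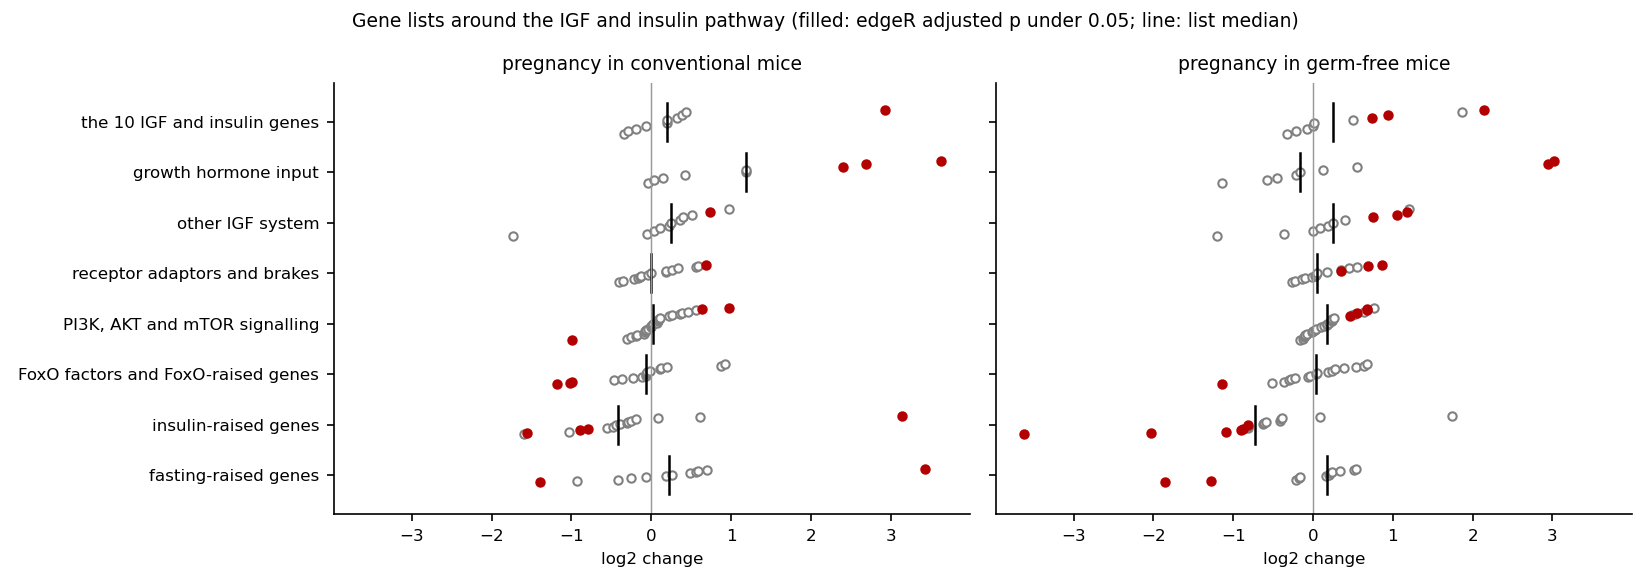
Log2 change (horizontal axis) of every tested gene of the 10 and of the 7 surrounding lists in conventional (left) and germ-free (right) pregnancy; filled points have an edgeR adjusted p under 0.05 and the vertical lines are list medians. Ghr and Prlr stand at 2.40 to 3.02 in both panels, and the list named insulin-raised has the lowest medians, -0.42 and -0.72.

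The genes most like each of the 10 were found by the Pearson r of log2 CPM over the 22 libraries, among 8730 genes with a mean of at least 5 CPM; this is a description with no test, over mice that share groups and library composition. Igfbp4 was followed most closely, by the secreted hepatocyte genes Lcat (r = 0.94), F5 (0.93) and Serpina1a (0.93). Igfals was most like Slc6a12 (0.90), Ces1c (0.89) and Slc22a7 (0.89). Igfbp1 was most like Irf2bp2 (0.89), Hist1h1c (0.83) and Jund (0.79), and Irs2 most like Habp4 (0.84), Dennd1a (0.82) and Rnf10 (0.81). Among the genes with no call, Igf1 was most like Rundc3a, Dok5 and Stx4a (0.78 each), Igfbp2 most like Spsb2 (0.83), Camk2n1 (0.82) and Ddrgk1 (0.80), and Insr most like Shpk (0.91), Vwa8 (0.90) and Dnajc28 (0.88). Irs1 was most like Cdk12 (0.91), Zfp507 (0.90) and Prr14l (0.89), and Igf1r most like Peli1 (0.84), Nfib (0.80) and Bptf (0.79). Igfbp3 had the weakest likenesses, to Pold3 (0.71), Marco (0.66) and Tmem35b (0.66), Marco being a marker of Kupffer cells.

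Markers of other cells moved with pregnancy in part. Beside the counts below, 5.49% of all genes rose and 3.52% fell in conventional pregnancy, and 7.15% and 3.6% in germ-free pregnancy. All 7 erythroid markers rose in germ-free pregnancy, with a summed level of 1759 to 3573 CPM in GP against 237 to 1768 CPM in GN, and 2 of 7 rose in conventional pregnancy (369 to 2251 CPM in CP against 448 to 862 in CN), or 6 of 7 without CP1. Of 9 acute phase genes, 6 rose in conventional pregnancy, or 1 without CP2, and 3 rose in germ-free pregnancy. Of 9 hepatocyte markers, 5 rose and 1 fell in germ-free pregnancy and 1 rose and 2 fell in conventional pregnancy, with median log2 changes of 0.72 and 0.41. Leaving out 1 library gave 2 hepatocyte markers higher without CN6 and 1 lower without CP4 in conventional pregnancy, and 2 lower without GP2 in germ-free pregnancy. Of 10 Kupffer and macrophage markers 0 were called in either. Of 10 stellate and fibroblast markers, 1 rose and 2 fell in conventional pregnancy, and 0 rose and 1 fell in germ-free pregnancy. Of 5 tested cholangiocyte markers, 0 rose and 1 fell in conventional pregnancy, and 1 rose and 1 fell in germ-free pregnancy. Of 10 liver endothelial markers 0 were called in conventional pregnancy, and 1 rose in germ-free pregnancy. With 1 library left out, the rises of these last 2 lists in germ-free pregnancy ran from 0 to 1. The endocrine pancreas markers summed to at most 0.09 CPM in any library, with Ins1 at 0 in all. The part of the erythroid, acute phase and hepatocyte markers in the changes of Igfbp1, Igfbp4, Igfals and Irs2 was not tested.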

How the data were processed

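Liver total RNA was made into libraries with the NEBNext Ultra RNA kit, per the labels' protocols. The authors deposited 1 table of estimated counts per gene (53392 genes in 22 libraries); GRCm38.p6, Salmon 0.11.3 and edgeR 3.24.3 appear in the submitters' processing notes, with no roles given. Between 14.7% and 26.3% of a library's values were not whole, and they were rounded, which moved the total by 0.00829% of counts. Identifiers were matched to GENCODE symbols (99.9% matched without version); the identifier of Igfals has another version in that annotation. Coordinates are from that annotation, on GRCm38, and promoters from RefSeq on GRCm38.p6.

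Counts were fitted in R 4.3.3 with edgeR 4.0.16 (filterByExpr with a minimum count of 10, TMM, quasi-likelihood test, 1 term per group, all libraries, Benjamini-Hochberg over all genes). On data simulated for the comparison of pregnant with non-pregnant conventional mice (15928 genes, 200 changed) the script recovered 183 and made 10 false calls. The planted log2 changes were 2 in either direction, in genes with a mean of at least 1 CPM. Recovery of smaller changes was not tested. No 2 libraries of a group agreed within sampling noise (50 pairs, lowest mean chi-square per gene 31.9). Alternatives were other size factors, no mitochondrial genes, no filter, DESeq2 1.42.0, limma-voom (limma 3.58.1), compared groups only, a replicate block, age as a covariate and each library left out; fits within an age label, averaged contrasts and the counts over lists with each library left out were added after the data were seen.

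The 10 genes and the lists (7 pathway lists and 10 marker lists) were chosen with earlier results of these data known. The genes named are the 10 in every comparison; up to 3 called genes with the largest log2 change of each other pathway list in each of 4 comparisons; Ghr, Prlr, Socs2, Cish, Stat5b, Igf2, Igf2r, Foxo1, Pck1, G6pc, Pdk4 and Srebf1 whether called or not; and the 3 genes most correlated with each of the 10. Saa1, Ins1 and Marco were singled out after their values were seen.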

Additional observations from a re-analysis of the deposited data

Results flagged for a closer look

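In each of the 4 groups the highest and lowest library of each of the 10 genes was compared with the rest of its group by Dixon's test. Of 40 groups of values, 6 had a library beyond the 95% critical value. Chance flags about 1 group in 20 where values are normally distributed. The test was run on CPM without a log scale, for which that rate was not checked. Igfbp1 was flagged in both conventional groups: CP2 stood at 256.3 CPM against 10.1 to 53.4 in the other CP mice, and CN1 at 25.97 CPM against 3.31 to 9.60 in the other CN mice. CN1 was also the highest CN mouse for Igfbp2, at 1119 CPM against 647 to 733. GN2 was the lowest GN mouse for Igfbp4, at 1361 CPM against 1673 to 1854, and the highest for Igf1r, at 4.463 CPM against 1.92 to 2.79. CP5 was the highest CP mouse for Igf1, at 907.1 CPM against 509 to 591.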

How the results depend on the processing

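The 50 log2 changes (10 genes in 5 comparisons) were recomputed under up to 33 settings, giving 1060 values: 1038 kept their side of the threshold and direction or moved by less than the spread between mice, 6 lost a call, 8 gained one, 8 moved by more than that spread and 0 called values changed direction. Igfbp4 and Irs2 in germ-free pregnancy were called in all 20 alternatives, with log2 changes of 0.89 to 0.99 and 1.73 to 3.01. Igfbp1 in conventional pregnancy was called in 19 of 21 (1.62 to 3.50, adjusted p 0.000637 to 0.690), failing without CP2 and within age label 70. The number of the 10 genes called higher in conventional pregnancy was 2 within age label 77 (Igfbp1 and Igfbp4) and 0 within label 70. In germ-free pregnancy it ran from 2 to 4. With a replicate block that number was 4, Igfbp1 being called at 2.35 (adjusted p = 0.0137), and no other call of the 10 genes changed. The replicate numbers belong to different mice: same-numbered libraries of different groups correlated at -0.26 to 0.31 after removal of the group means, 5 of 21 pairs above 0.1, and in 4 of the 21 the library correlated best with its own number. Over all genes, DESeq2 called 1011 higher and 889 lower in conventional pregnancy, where edgeR called 875 and 561, 1254 and 864 in germ-free pregnancy against 1139 and 574, 55 and 59 in non-pregnant germ-free against conventional mice (14 and 11 by edgeR), and 63 and 44 in pregnant ones (13 and 8). Depth limits Igf1r most, with 234 to 408 counts in all per group.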
